A study of Homo sapiens with 27 samples.

Results

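The mRNA response of IMR90 cells to thapsigargin was measured by RNA-seq in 2 libraries of treated cycling cells and 2 libraries of untreated cycling cells, chosen by their titles. These are 4 of the 27 libraries of the study and 4 of its 13 RNA-seq libraries. IMR90 is an established line of fibroblasts from normal human fetal lung. Untreated cells are labelled wild type and were harvested at 40-60% confluency. Treated cells had grown to the same confluency and received 25 nM thapsigargin for 3 h. Both were kept in high-glucose DMEM with 10% FBS and non-essential amino acids, with antibiotic and antimycotic named for the untreated cells only, and both were lysed in a buffer with cycloheximide. The other 9 RNA-seq libraries, 3 for each state, came from cells made quiescent by contact inhibition, from cells made senescent by 15 Gy of ionizing radiation with harvest after 10 days, and from cells made senescent by 3 treatments with 50 µM etoposide over 10 days. They served for the range of each gene in IMR90 cells and for the estimate of the spread. No vehicle control is named, and no untreated library has the label fields or the read statistics of the treated ones. Treatment and library batch coincide and cannot be told apart in any value below.

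Thapsigargin blocks SERCA, the pump that fills the endoplasmic reticulum (ER) with calcium. The store drains, store-operated entry raises calcium in the cytosol, and chaperones that need calcium fail, so that unfolded proteins gather in the ER. The sensors PERK (gene EIF2AK3), IRE1 (ERN1) and ATF6 then start the unfolded protein response (UPR). PERK phosphorylates eIF2α, which lowers general translation and favours ATF4, the step that the UPR shares with the integrated stress response (ISR). IRE1 splices XBP1 mRNA and cleaves some mRNAs at the ER membrane, and ATF6 is cut in the Golgi to give a factor that acts on chaperone genes. Cytosolic calcium acts through calcineurin, which moves NFAT factors into the nucleus.

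Counts in genes, divided by 1e6, came to 29.3 and 20.6 for the cycling and 40.8 and 57.1 for the treated libraries. Unmapped reads were 32.1% and 31.3% of the reads of the cycling libraries and 27.8% to 40.7% in the other 9 libraries, but 1.40% and 1.35% in the treated libraries. Reads mapping to several places were 13.2% and 33.4% in the cycling and 38.01% and 19.7% in the treated libraries. Counts in 7300 pseudogenes named after a protein-coding gene summed to 976 to 1466 per 1e6 counts in the 11 RNA-seq libraries without thapsigargin and to 3208 and 2993 in the treated ones. The treated libraries thus stood apart from all others in 2 measures of how reads were assigned, and the part of this in the results below was not tested. Libraries of a group differed by more than sampling noise, as the chi-square statistic divided by its degrees of freedom was 17.2 for the cycling and 145.5 for the treated pair. Nothing in the labels says that libraries of a group came from separate cultures, so p-values measure the spread between these samples, which may be technical.

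Of 13295 protein-coding genes tested with edgeR's quasi-likelihood test, 3259 (24.5%) were called at an adjusted p under 0.05. Higher after thapsigargin were 1562 genes (11.7%) and lower 1697 (12.8%), with a median log2 fold change of -0.03 over all genes. A change of at least 2-fold was seen for 683 of the higher and 661 of the lower genes. A fit of the 4 libraries alone, with 2 residual degrees of freedom in place of 8, called 855 genes higher (6.7%) and 655 lower (5.13%) of 12769. Of the 3259 genes, 1478 were called in the same direction there. Both treated libraries lay above all 11 other RNA-seq libraries for 1652 genes (12.4% of those tested) and below all 11 for 1688 (12.7%). Among called genes this held for 1031 of the 1562 higher and 1034 of the 1697 lower, so most called genes left the range that the other states of these cells spanned. Levels are given below in counts per 1e6 after TMM scaling (CPM), by library with replicate 1 first, and log2 fold changes (treated minus cycling) as estimate ± SE.

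The 12 genes with the largest rises that met the naming rule were SERPINB2, CSNK2A3, HDAC9, RCAN1, NOG, HERPUD1, DDIT3, LIPG, NR4A3, PTGS2, CXCL8 and RRAD, with log2 fold changes from 4.72 down to 3.26. SERPINB2, an inhibitor of urokinase, was at 0.510 and 0.518 CPM in cycling and at 14.2 and 13.1 CPM in treated libraries. LIPG, endothelial lipase, was at 1.46 and 1.30 CPM against 14.2 and 15.5 CPM. RRAD, a small GTPase that restrains calcium channels, was at 1.53 and 0.829 CPM against 11.8 and 11.4 CPM. The 12 largest falls were those of WNT2, COL15A1, GDF5, BMP4, H3-3A, VCAM1, PTGIS, GALNT15, DIO2, DIRAS3, MASP1 and CCN4, from -4.56 to -3.28. VCAM1, an adhesion molecule for leukocytes, was at 40.8 and 36.1 CPM against 2.97 and 1.95 CPM. PTGIS, which makes prostacyclin, was at 12.3 and 12.8 CPM against 0.828 and 1.30 CPM. DIO2, which activates thyroid hormone, was at 29.6 and 29.4 CPM against 3.29 and 2.23 CPM. The naming rule admitted only genes in which the groups did not overlap. CSNK2A3 and H3-3A have near-identical relatives in the genome and their counts are uncertain, as given with the ribosomal proteins below.

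Promoters of 6 of the stress genes are shown because they hold the elements through which ATF6, XBP1, ATF4 and CHOP are known to act. Sequences are the 250 bases before the RefSeq start site on GRCh38.p14, written 5′ to 3′ in the direction of the gene. Capitals mark matches on either strand to the ER stress response element ERSE (CCAAT and CCACG with any 9 bases between them), to ERSE-II (ATTGG and CCACG with any 1 base between them) or to the C/EBP-ATF response element CARE (TGATGNAA), where N is any base. HSPA5, FICD and ERO1B hold ERSE, HERPUD1 and SDF2L1 hold ERSE-II, and HERPUD1 and CHAC1 hold CARE. The promoters of ATF3, DDIT3 and PPP1R15A were searched in the same way and are not shown. That of ATF3 held CARE, and that of PPP1R15A held only the element CRE (TGACGTCA), which was searched too. A single start site was searched for each gene, so elements at any other start site of a gene, ATF3 included, were not seen. The promoter of DDIT3 held no exact match to these elements in the 250 bases. Sites further upstream or with a changed base were not searched.
HSPA5 (chr9:125241344-125241593, minus strand): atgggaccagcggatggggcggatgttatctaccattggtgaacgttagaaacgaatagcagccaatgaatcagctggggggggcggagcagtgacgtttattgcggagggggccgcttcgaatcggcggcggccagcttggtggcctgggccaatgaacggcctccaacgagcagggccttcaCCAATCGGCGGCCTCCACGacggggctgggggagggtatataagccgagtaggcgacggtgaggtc
FICD (chr12:108515027-108515276, plus strand): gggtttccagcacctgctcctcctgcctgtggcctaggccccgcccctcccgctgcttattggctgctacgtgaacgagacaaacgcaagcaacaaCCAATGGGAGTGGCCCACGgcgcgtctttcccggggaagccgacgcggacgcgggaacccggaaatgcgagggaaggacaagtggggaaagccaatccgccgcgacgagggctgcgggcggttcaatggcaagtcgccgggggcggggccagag
ERO1B (chr1:236281959-236282208, minus strand): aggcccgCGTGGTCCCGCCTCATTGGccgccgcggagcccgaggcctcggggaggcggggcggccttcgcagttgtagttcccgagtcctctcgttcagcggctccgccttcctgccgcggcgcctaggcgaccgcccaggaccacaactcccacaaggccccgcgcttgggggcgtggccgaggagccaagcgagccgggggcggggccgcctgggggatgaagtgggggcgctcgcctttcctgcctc
HERPUD1 (chr16:56931892-56932141, plus strand): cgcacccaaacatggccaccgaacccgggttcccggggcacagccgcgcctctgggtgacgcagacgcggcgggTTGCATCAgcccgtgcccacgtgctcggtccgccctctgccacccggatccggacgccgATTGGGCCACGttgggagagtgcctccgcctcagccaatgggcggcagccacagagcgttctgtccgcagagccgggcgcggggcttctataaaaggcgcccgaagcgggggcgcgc
SDF2L1 (chr22:21642052-21642301, plus strand): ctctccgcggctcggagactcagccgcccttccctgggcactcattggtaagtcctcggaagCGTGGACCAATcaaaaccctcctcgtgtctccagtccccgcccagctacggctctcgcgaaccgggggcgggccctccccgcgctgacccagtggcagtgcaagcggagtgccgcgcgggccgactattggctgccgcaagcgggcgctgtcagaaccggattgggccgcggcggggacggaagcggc
CHAC1 (chr15:40953221-40953470, plus strand): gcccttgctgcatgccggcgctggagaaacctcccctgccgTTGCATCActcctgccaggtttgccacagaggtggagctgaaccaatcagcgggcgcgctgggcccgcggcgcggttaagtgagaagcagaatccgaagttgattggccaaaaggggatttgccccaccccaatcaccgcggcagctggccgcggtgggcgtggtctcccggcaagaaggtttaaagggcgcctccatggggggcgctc
The 300 bases around the start (250 before and 50 after) were searched for all 27305 genes of the table. ERSE was in 0.0806% of them, ERSE-II in 0.0549% and CARE in 3.67%. A promoter was matched by symbol for 10827 of the tested genes, of which 14 held ERSE and 10 held ERSE-II. Of the 14 with ERSE, 6 were called higher (HSPA5, FICD, ERO1B, CRELD2, SERP1 and XBP1) and none was called lower. The other 8 were not called, CALR, CANX and HSP90B1 among them. Over all genes tested, 11.7% were called higher and 12.8% lower. The call of SERP1, which stabilises new membrane proteins, was lost with the 4 libraries alone (adjusted p = 0.0869), without cycling replicate 1, without cycling replicate 2 and without treated replicate 1 (adjusted p up to 0.199). Of the 10 with ERSE-II, 4 were called higher (HERPUD1, SDF2L1, HYOU1 and RAD9A) and 6 were not called. The calls of HSPA5, XBP1, CRELD2 and HYOU1 were also lost under some alternative settings, as given with these genes below. CARE was in 1.81% of the promoters of tested genes, in 2.62% of the 535 promoters of genes called at least 2-fold higher and in 2.39% of the 502 of genes called at least 2-fold lower. For CRE these shares were 3.32%, 3.18% and 3.19%. A match is a description of letters, not of binding.

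Several transcription factors and regulators of the ISR rose. Of 25 tested regulators, 10 were called higher and 2 lower, with a median log2 fold change of 0.23 beside -0.03 for all genes. Of all genes tested, 11.7% were called higher and 12.8% lower, and these shares stand beside each list count below. DDIT3, which encodes the pro-apoptotic factor CHOP, was at 41.4 and 39.6 CPM in cycling and 494.8 and 382.5 CPM in treated libraries. Its change of 3.44 ± 0.16 (adjusted p = 6.29e-08) placed both treated libraries above the 66.4 to 108 CPM of the quiescent and senescent cells. ATF3, a partner of ATF4 and CHOP, went from 7.73 and 6.63 CPM to 60.3 and 68.6 CPM (3.16 ± 0.16, adjusted p = 9.7e-08). PPP1R15A encodes GADD34, which directs a phosphatase to eIF2α and so restores translation, and it was at 109 and 106 CPM against 499.7 and 581.5 CPM (2.33 ± 0.12). ATF4 itself, whose control is mainly translational, was at 576 and 548 CPM against 971 and 928 CPM (0.76 ± 0.12, adjusted p = 0.00046). CEBPB, another bZIP factor, changed by 1.38 ± 0.14, and CEBPG, the partner of ATF4 at amino acid genes, by 0.87 ± 0.17. EIF2AK3, the PERK gene, was at 32.5 and 35.7 CPM against 79.3 and 64.5 CPM (1.08 ± 0.26, adjusted p = 0.0088), a call lost without cycling replicate 1 (adjusted p = 0.0734). EIF2S3, the gamma subunit of eIF2, fell by 0.67 ± 0.13 on the log2 scale.

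Downstream of these factors the rise was limited to a part of the ATF4 and CHOP program. Of 38 tested targets, 10 were called higher and 2 lower, and the median was 0.13. CHAC1, which degrades glutathione, was at 49.7 and 40.9 CPM against 277.9 and 337 CPM (2.76 ± 0.18). SESN2, an inhibitor of mTORC1, was at 41.2 and 43.3 CPM against 219 and 265 CPM (2.52 ± 0.16), and TRIB3, a pseudokinase that restrains ATF4 and AKT, at 101 and 93.2 CPM against 441 and 402 CPM (2.12 ± 0.15). CTH, of the transsulfuration pathway, rose by 1.59 ± 0.20 and GDF15, a stress hormone, by 0.95 ± 0.18. The cationic amino acid carrier SLC7A1 rose by 1.25 ± 0.26 and SLC3A2, the heavy chain of several carriers, by 0.88 ± 0.18. DDIT4, another brake on mTORC1, changed by 1.24 ± 0.28, a call lost without cycling replicate 1 (adjusted p = 0.0648).

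Other enzymes of amino acid metabolism and the tRNA synthetases, which ATF4 also controls, are given by gene. PSAT1, of serine synthesis, was at 168 and 164 CPM against 106 and 164 CPM, and SHMT2, of the mitochondrial folate cycle, at 247 and 234 CPM against 243 and 259 CPM. PHGDH, the first enzyme of serine synthesis, was at 148 and 148 CPM against 57.6 and 109 CPM (-0.83 ± 0.29, adjusted p = 0.052). It was called lower with the replicate block (adjusted p = 0.0488), with DESeq2, without quiescent replicate 3 and without treated replicate 2 (-1.35, adjusted p = 0.00867). CBS, the enzyme before CTH in transsulfuration, fell by 1.53 ± 0.24 and INHBE, an activin subunit, by 1.86 ± 0.36. ASNS, asparagine synthetase, was low, with 0.802 and 0.622 CPM against 0.876 and 1.596 CPM, and was not called (0.79 ± 0.69, adjusted p = 0.437). Of 20 tRNA synthetases none was called higher (1 without treated replicate 1), and WARS1, LARS1 and KARS1 were called lower by 0.63, 0.46 and 0.42 on the log2 scale. With the 4 libraries alone none of the 20 was called in either direction. The calls of LARS1 and KARS1 were also lost without cycling replicate 1 and without treated replicate 2 (adjusted p up to 0.148).

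The UPR genes of the ER divided into a few that rose strongly and many that did not pass the test. Of 29 ER chaperones and folding enzymes, 9 were called higher and 3 lower (median 0.18), and 5 and 0 without cycling replicate 2. SDF2L1, which assists BiP and ERdj3, was at 11.4 and 13.3 CPM against 111 and 121.5 CPM (3.23 ± 0.23, adjusted p = 1.19e-06). DNAJB9, the cochaperone ERdj4, was at 19.97 and 20.7 CPM against 208 and 168 CPM (3.21 ± 0.26). MANF, a secreted ER protein, was at 66.4 and 55.02 CPM against 172 and 172 CPM (1.502 ± 0.24). DNAJC3, an inhibitor of PERK that also works inside the ER, rose by 1.41 ± 0.27 and ERO1B, an oxidase of disulfide formation, by 1.77 ± 0.29. CRELD2, HYOU1 and DNAJB11 changed by 0.97 ± 0.21, 0.92 ± 0.25 and 0.78 ± 0.27. All 3 calls were lost without cycling replicate 2, with adjusted p = 0.0564, 0.119 and 0.169. Those of HYOU1 and DNAJB11 were lost without cycling replicate 1 too, HYOU1 also without treated replicate 2 and DNAJB11 without treated replicate 1, with the replicate block (adjusted p = 0.0659) and with the 4 libraries alone (adjusted p = 0.0556).

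HSPA5 encodes BiP, the main ER chaperone and the brake on all 3 sensors, and its level depended on the library. It was at 122 and 167 CPM in cycling and at 216 and 600.4 CPM in treated libraries, so the groups did not overlap but the treated libraries were 1.475 apart on the log2 scale (0.5 CPM added). The change of 1.499 ± 0.48 was called (adjusted p = 0.0358) in the fit of all states and not with the 4 libraries alone (adjusted p = 0.08). It was 0.60 without treated replicate 2 (adjusted p = 0.397) and 2.07 without treated replicate 1. The call was lost too without cycling replicate 1, without cycling replicate 2 and with no filter on low counts (adjusted p = 0.21, 0.0991 and 0.0953). Among the listed ER chaperones and folding enzymes with at least 5 CPM in a treated library, none differed as much between the treated libraries. The next was HSPA13 at 96.3 and 60.7 CPM.

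The abundant calcium-binding lectins and disulfide isomerases were not higher at 3 h. HSP90B1, the ER member of the HSP90 family, was at 358 and 390 CPM against 312 and 273 CPM, CALR at 896 and 767 CPM against 657.5 and 885.5 CPM, and CANX at 875 and 881 CPM against 733 and 612 CPM. PDIA3, which works with these lectins, fell from 304 and 319 CPM to 167.5 and 186 CPM (-0.82 ± 0.28, adjusted p = 0.0467). SDF2 and SIL1 were called lower by 0.80 each on the log2 scale. The calls of PDIA3 and SIL1 were lost when any 1 of the 4 libraries was left out (adjusted p up to 0.165 for PDIA3), and that of SDF2 without cycling replicate 2.

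Of 16 genes listed for the sensors and their control, 5 were called higher and none lower (median 0.22). These were ERN1, XBP1, EIF2AK3, HSPA5 and CCND1, the last of which encodes cyclin D1 and is not a sensor. EIF2AK3 is also counted among the ISR regulators and HSPA5 among the chaperones, so these counts are not separate. The number called higher was 1 without cycling replicate 1, 2 without cycling replicate 2 and 3 without treated replicate 2, where 1 gene was called lower and the median was -0.03. ERN1 was at 11.01 and 10.5 CPM against 18.2 and 21.4 CPM (0.88 ± 0.21), and XBP1 at 257 and 245 CPM against 419 and 422 CPM (0.75 ± 0.22, adjusted p = 0.0261). ATF6 was at 63.2 and 54.9 CPM against 46.4 and 40.4 CPM and was not called. The call of XBP1 was lost when any 1 of the 4 libraries was left out (adjusted p up to 0.136), although both treated libraries lay above the 86.8 to 175 CPM of the other states. The call of ERN1 was lost without cycling replicate 1 (adjusted p = 0.0545) and without cycling replicate 2 (adjusted p = 0.0703). Gene counts do not tell spliced from unspliced XBP1 mRNA.

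ER-associated degradation (ERAD), which extracts misfolded proteins to the proteasome, held 9 genes called higher and 2 called lower of 27 (median 0.31). The number called higher was 5 without cycling replicate 1 and 6 without cycling replicate 2 or with the 4 libraries alone. HERPUD1, which organises the ERAD ligase complex, was at 132 and 123 CPM against 1407 and 1566 CPM, a change of 3.54 ± 0.16 (adjusted p = 6.29e-08), while the quiescent and senescent cells held 84.3 to 134 CPM. DERL2, a part of the exit channel, rose by 1.02 ± 0.17, SELENOK, a selenoprotein of the same complex, by 1.364 ± 0.18, and VCP, the ATPase that pulls substrates out, by 0.74 ± 0.12. SYVN1, the ligase HRD1, changed by 1.40 ± 0.32, a call lost without cycling replicate 1 (adjusted p = 0.0859). SEL1L, its adaptor, was at 118 and 129 CPM against 169.5 and 169 CPM and was not called. FICD, which modifies BiP, was at 9.29 CPM on average in cycling and 38.8 CPM in treated libraries (2.06, adjusted p = 2.76e-05). In ER transport, 3 of 38 genes were called higher, the COPII coat genes SEC23B (1.00 ± 0.15), SEC24A (0.86 ± 0.13) and SEC24D (0.59 ± 0.11), and 4 lower, LMAN1 with the largest fall (-1.04 ± 0.26). Leaving out either cycling replicate or treated replicate 2 left 1 ER transport gene called lower. The call of LMAN1, a cargo receptor, was lost without cycling replicate 2 and without treated replicate 2 (adjusted p up to 0.0873).

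**Figure D1:**
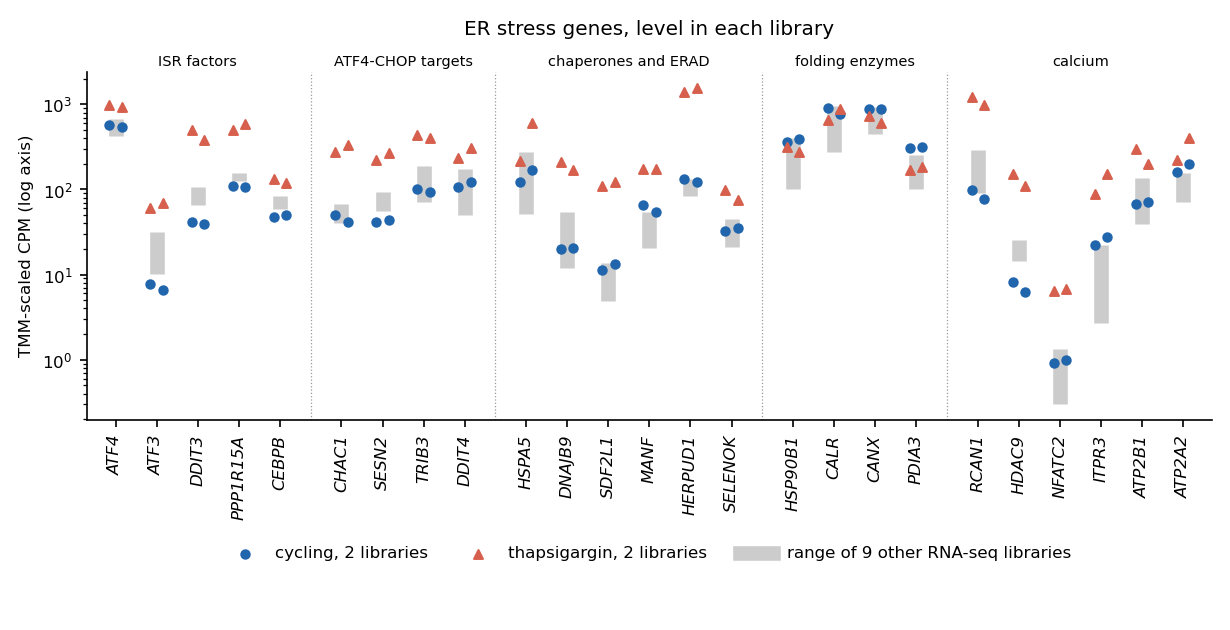
Level of 25 genes of ER stress and calcium response in each library (TMM-scaled CPM, log axis). Circles are the 2 cycling and triangles the 2 treated libraries, with replicate 1 on the left, and grey bars span the 9 quiescent and senescent libraries. The triangles of DDIT3, HERPUD1, DNAJB9 and RCAN1 lie far above the circles and bars, those of HSPA5 are apart from each other (216 and 600.4 CPM), and those of the folding enzymes do not exceed the higher circle.

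Few genes that move and store calcium were called, and more of those in the calcineurin pathway. Of 28 genes of calcium stores, channels and pumps, 3 were called higher and 2 lower (median -0.05). The shares over all genes tested were 11.7% and 12.8%. ITPR3, a channel that releases calcium from the ER, was at 22.3 and 27.6 CPM against 88.9 and 150.5 CPM (2.27 ± 0.25). ATP2B1, which exports calcium across the plasma membrane, was at 67.9 and 71.2 CPM against 298 and 198 CPM (1.83 ± 0.27). ATP2A2, the SERCA pump that thapsigargin blocks, was at 159 and 201 CPM against 225 and 397.5 CPM and was not called (0.79 ± 0.31, adjusted p = 0.078), but was called without treated replicate 1.

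Of 26 genes of the calcineurin and NFAT pathway, 14 were called higher and 2 lower (median 0.84). RCAN1, an inhibitor of calcineurin whose short form is itself driven by NFAT, was at 97.3 and 77.6 CPM against 1213 and 988.5 CPM (3.65 ± 0.20, adjusted p = 1.2e-07). HDAC9, a partner of MEF2 factors, was at 8.09 and 6.17 CPM against 150.6 and 109.6 CPM (4.18 ± 0.27). NFATC2 was at 0.911 and 0.984 CPM against 6.35 and 6.82 CPM (2.80 ± 0.48), while NFATC4 fell by 0.95 ± 0.21, a call lost without cycling replicate 2 (adjusted p = 0.079). MEF2A rose by 1.38 ± 0.14. The orphan receptors NR4A2 and NR4A3 rose by 3.18 ± 0.61 and 3.33 ± 0.60 and the prostaglandin synthase PTGS2 by 3.29 ± 0.64. Their cycling levels differed between the libraries, NR4A2 with 2.26 and 7.77 CPM against 33.6 and 55.3 CPM after treatment. In these 3 genes the treated libraries lay above both cycling libraries, which the naming rule had required of NR4A3 and PTGS2.

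Immediate early genes, which serum, stress and calcium induce within minutes to hours, showed a mixed pattern. Of 38 such genes, 18 were called higher and 3 lower (median 0.59). KLF4 was at 15.9 and 18.03 CPM against 114 and 104 CPM (2.69 ± 0.23), the kinase SGK1 at 79.7 and 87.7 CPM against 347 and 341 CPM (2.04 ± 0.17), and NFIL3, a bZIP repressor, at 57.9 and 72.95 CPM against 212 and 225 CPM (1.74 ± 0.16). The clock gene PER1 rose by 2.41 ± 0.39. In the other direction went ZFP36, which speeds the decay of cytokine mRNAs, from 17.1 and 24.4 CPM to 2.92 and 3.84 CPM (-2.60 ± 0.24), SOCS3, an inhibitor of cytokine signalling, from 84.4 and 97.98 CPM to 25.1 and 23.0 CPM (-1.92 ± 0.16), and the kinase PIM1 (-1.97 ± 0.20). FOS, at 2.30 and 6.32 CPM against 0.609 and 1.56 CPM, was not called.

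Of 30 NF-κB targets and cytokines, 14 were called higher and 5 lower (median 0.70), but 6 and 2 without cycling replicate 1. Named subunits and inhibitors of NF-κB rose. NFKB1 was at 46.5 and 46.5 CPM against 160 and 149.6 CPM (1.74 ± 0.12, adjusted p = 6.3e-07), RELB changed by 2.14 ± 0.27, NFKBIE by 1.51 ± 0.21 and BIRC3, an inhibitor of cell death, by 2.33 ± 0.36. The cytokine LIF rose from 113.5 and 101 CPM to 199.7 and 241 CPM (1.04 ± 0.14). CXCL8, the neutrophil chemokine, was at 3.17 and 16.6 CPM against 119 and 69.6 CPM (3.29 ± 0.73), inside the 4.47 to 437 CPM of the other states. Its call was just lost without cycling replicate 1 (adjusted p = 0.0503). IL1B fell by 4.15 ± 0.51, from 2.30 and 5.49 CPM to 0.170 and 0.246 CPM, and the chemokine CXCL12 from 51.8 and 66.5 CPM to 18.9 and 18.8 CPM (-1.65 ± 0.24).

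**Figure D2:**
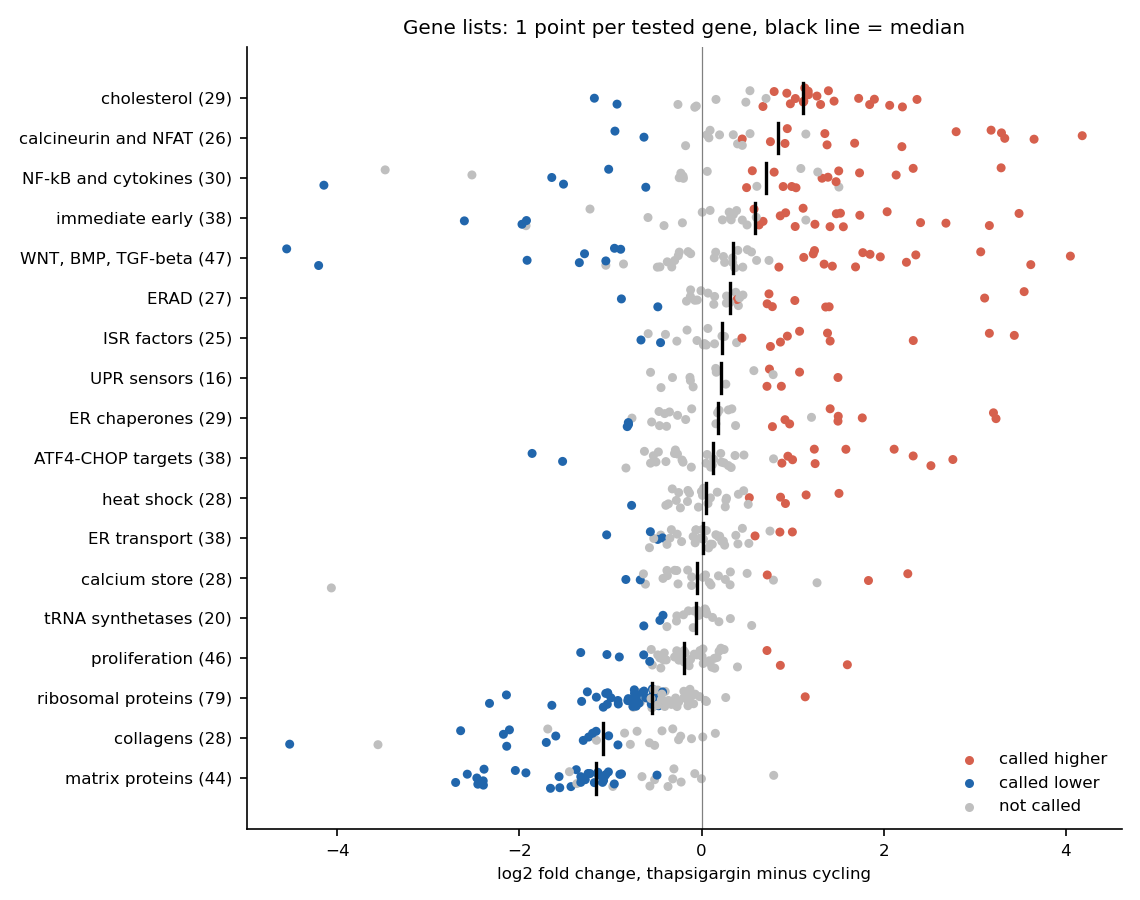
Log2 fold change (treated minus cycling) of every tested gene in 18 gene lists, with the number tested in brackets. Red points were called higher, blue points lower and grey points not called at an adjusted p under 0.05, and black lines are medians. Cholesterol genes have the highest median (1.12) and matrix proteins the lowest (-1.16) of the 18.

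The 2 lists with the lowest medians were those of the extracellular matrix, a main product of fibroblasts, whose proteins fold in the ER. Of 28 collagen genes, 13 were called lower and none higher (median -1.09), and of 44 matrix glycoproteins, proteoglycans and matrix enzymes, 31 were called lower and none higher (median -1.16). COL3A1, a fibrillar collagen of lung, fell from 1036 and 1627 CPM to 224 and 201 CPM (-2.65 ± 0.41, adjusted p = 0.0005). COL5A2 was at 446 and 548 CPM against 120.0 and 99.8 CPM (-2.18 ± 0.33), and COL4A1, of basement membranes, at 465 and 591 CPM against 118 and 122 CPM (-2.14 ± 0.40). COL15A1 was at 33.4 and 40.8 CPM against 1.24 and 1.93 CPM (-4.52 ± 0.47). Neither chain gene of type I collagen, the main collagen of the interstitium, was called. COL1A2 was at 2005 and 3618 CPM in cycling and 1410 and 1720 CPM in treated libraries (-0.845 ± 0.35, adjusted p = 0.0974). In COL1A2 both treated libraries lay below both cycling libraries. COL1A1 was at 920 and 2251 CPM in cycling and 738 and 1925 CPM in treated libraries (-0.25 ± 0.50, adjusted p = 0.754). Replicates of both groups differed more in COL1A1 than the groups did.

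Among matrix proteins, TGFBI, an adhesion protein, was at 2156 and 2683 CPM against 427 and 491.5 CPM (-2.40 ± 0.17, adjusted p = 8.4e-07). FN1, fibronectin, fell from 3446 and 4630 CPM to 1314 and 1674 CPM (-1.43 ± 0.27), and SPARC, a collagen-binding glycoprotein, from 2182 and 2087 CPM to 690 and 760.5 CPM (-1.56 ± 0.25). The laminin chain gene LAMA4 had the largest fall of the list (-2.701 ± 0.28), followed by POSTN, periostin (-2.57 ± 0.45). Genes chosen after their values were seen include SERPINH1, the collagen chaperone, which fell by 1.02 ± 0.22, the lysyl hydroxylase PLOD1, which fell by 1.13 ± 0.24, and the prolyl hydroxylase P4HA2, which fell by 0.96 ± 0.20. P4HB, the other subunit of the prolyl hydroxylase, was at 453.6 and 545.6 CPM against 338.5 and 494.1 CPM and was not called (adjusted p = 0.395). HSPG2, perlecan, had the only positive change of over 0.1, at 33.97 and 54.7 CPM against 59.7 and 93.7 CPM (adjusted p = 0.088). It was called higher without quiescent replicate 3, without treated replicate 1 and with DESeq2 (adjusted p = 0.0351, 0.0366 and 0.0464). In the fit of the 4 libraries alone 11 collagens and 28 matrix genes were called lower, and without cycling replicate 2 these were 6 and 18. In bulk RNA, fewer transcripts per cell cannot be told apart from fewer cells that make them.

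Of 8 mRNAs known as targets of IRE1 cleavage, 4 were called lower and 1 higher. SPARC is given above, PDGFRA, a growth factor receptor, fell from 251 and 304 CPM to 85.4 and 73.3 CPM (-1.80 ± 0.27) and PMP22, a membrane protein, by 1.13 ± 0.20. PDGFRB was called lower (-0.72 ± 0.23) and SCARA3 higher (0.56 ± 0.16). The last 2 calls were lost with the 4 libraries alone, with adjusted p = 0.0967 for PDGFRB and 0.0792 for SCARA3, and PDGFRB also without cycling replicate 1, without cycling replicate 2 and without treated replicate 1 (adjusted p up to 0.251). SCARA3 lost its call without cycling replicate 1, without cycling replicate 2 and without treated replicate 2 (adjusted p up to 0.156). BLOC1S1, the target used most often as a readout of IRE1 cleavage, was at 30.5 and 25.2 CPM against 36.6 and 27.7 CPM and was not called. SPARC also stands in the matrix list, so these counts are not separate.

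Genes of WNT, BMP and TGF-β signalling moved in both directions, with 15 of 47 called higher and 8 lower (median 0.34), and 5 lower without cycling replicate 2. The ligands on the lower side were WNT2, a lung mesenchyme WNT, from 22.4 and 20.9 CPM to 1.14 and 0.719 CPM (-4.56 ± 0.29), BMP4, from 14.5 and 23.4 CPM to 1.12 and 0.930 CPM (-4.21 ± 0.29), and WNT5A, from 303 and 375 CPM to 91.9 and 87.6 CPM (-1.92 ± 0.26). GDF5, a ligand of the BMP family named for its large fall and not in the list, fell from 92.7 and 80.2 CPM to 4.53 and 4.03 CPM (-4.34 ± 0.25), and TGFB2 by 1.28 ± 0.21. For WNT2, BMP4 and GDF5 both treated libraries lay below every other RNA-seq library. Other ligands went the opposite way, INHBA, an activin subunit, from 144.5 and 126 CPM to 458 and 466 CPM (1.77 ± 0.26) and WNT16 by 3.07 ± 0.35. BMP2, a ligand related to BMP4, was at 0.583 and 0.984 CPM against 4.21 and 3.65 CPM (2.35 ± 0.42), within the 0.664 to 7.64 CPM of the other states.

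Some genes for secreted antagonists of these ligands rose, of which SFRP1 and DKK1 were chosen after their values were seen. NOG, noggin, which binds BMPs, was at 2.52 and 1.71 CPM against 31.5 and 21.1 CPM (3.62 ± 0.42, adjusted p = 5.6e-05). SFRP1, which binds WNTs, was at 290 and 331 CPM against 836 and 846.5 CPM (1.44 ± 0.17), and DKK1, which blocks the WNT coreceptor, at 55.8 and 45.2 CPM against 194 and 171 CPM (1.85 ± 0.32). Inside the cell, ID3, a direct target of BMP receptors, was at 58.1 and 61.2 CPM against 275.0 and 293 CPM (2.25 ± 0.22). The inhibitory SMADs rose too, SMAD6 by 1.69 ± 0.20 and SMAD7 by 1.96 ± 0.16. The TGF-β coreceptor TGFBR3 fell by 1.34 ± 0.25.

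**Figure D3:**
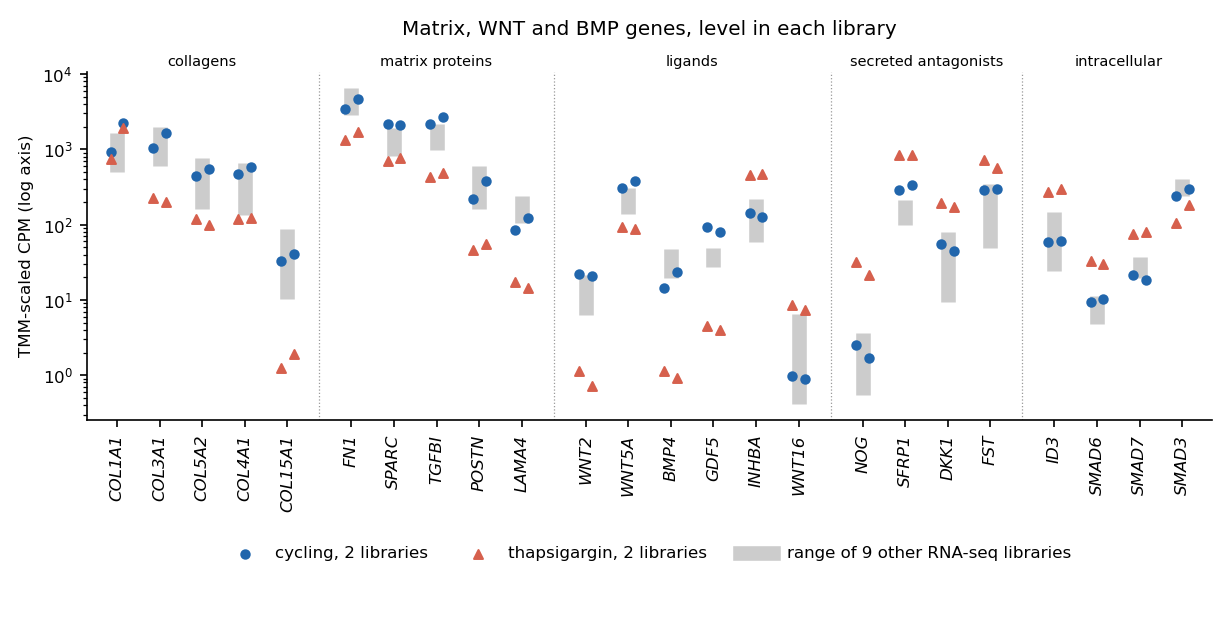
Level of 24 matrix, WNT, BMP and TGF-β genes in each library (TMM-scaled CPM, log axis), drawn as circles for cycling, triangles for treated and grey bars for the 9 other libraries. Treated libraries lie below the bars for COL3A1, TGFBI, WNT2, BMP4 and GDF5 and above them for NOG, SFRP1 and INHBA, while COL1A1 overlaps between the groups.

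Most genes of cholesterol synthesis rose. SREBP factors, which the ER releases when its sterol falls, drive these genes. Of 29 genes, 20 were called higher and 2 lower, with a median of 1.12. HMGCS1, at the entry of the mevalonate pathway, was at 99.8 and 87.5 CPM against 463 and 503 CPM (2.37 ± 0.13, adjusted p = 1.2e-07). MVD was at 38.6 and 44.6 CPM against 155.5 and 193 CPM (2.07 ± 0.26), IDI1 at 121 and 116 CPM against 549 and 337.5 CPM (1.90 ± 0.19), and SQLE, of the sterol branch, at 93.0 and 85.6 CPM against 195.5 and 194 CPM (1.12 ± 0.19). Late steps rose as well, with MSMO1 at 1.39 ± 0.21, NSDHL at 1.46 ± 0.21 and HSD17B7 at 1.85 ± 0.20. INSIG1, which holds SREBP in the ER, was at 270.0 and 252 CPM against 640 and 493 CPM (1.12 ± 0.14).

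Genes of cholesterol transport and of SREBP itself moved in both directions or were not called. STARD4, which carries cholesterol between membranes, was at 116 and 91.9 CPM against 597 and 362 CPM (2.21 ± 0.24), and ABCA1, the exporter that LXR drives, fell from 147 and 186 CPM to 77.9 and 69.2 CPM (-1.18 ± 0.22). The factors SREBF1, at 42.1 and 56.4 CPM against 38.7 and 55.8 CPM, and SREBF2, at 118 and 137 CPM against 134 and 224 CPM, were not called, and SREBF2 was called without treated replicate 1. Treated levels of HMGCS1 and STARD4 were above all 9 quiescent and senescent libraries, which held 85.5 to 122 CPM and 83.6 to 118 CPM.

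**Figure D4:**
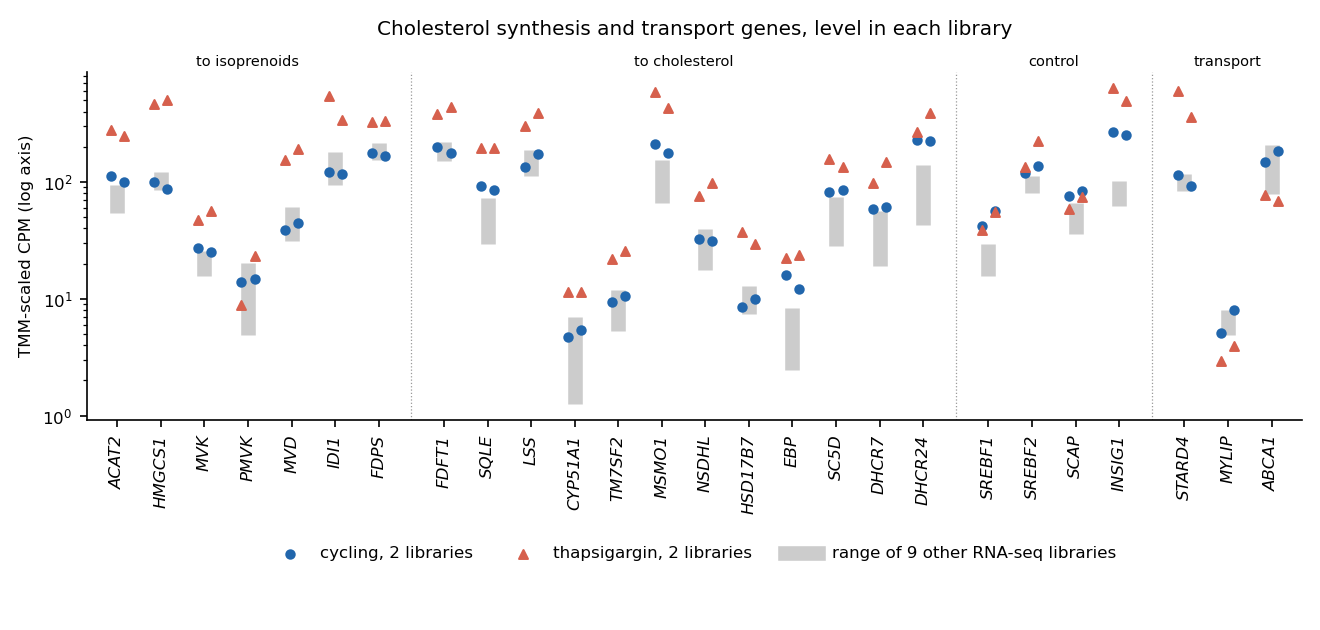
Level of 26 genes of cholesterol synthesis, its control and transport in each library (TMM-scaled CPM, log axis), in the order of the pathway from left to right within the first 2 blocks. Circles are cycling, triangles treated and grey bars the 9 other libraries. Triangles lie above circles for all enzymes drawn but PMVK, and not for SREBF1 (38.7 and 55.8 CPM).

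Ribosomal protein genes were lower, and how reads were assigned moved with them. Of 79 genes, 42 were called lower and 1 (RPL26) higher, with a median of -0.54, and 25 were called lower with the 4 libraries alone and 27 without cycling replicate 1. RPLP0, of the ribosomal stalk, was at 3129 and 3047 CPM against 2023 and 1712 CPM (-0.73 ± 0.15). RPS16 was at 70.1 and 266 CPM against 35.6 and 283 CPM and shows how far libraries of a group could differ. EEF1A1, the elongation factor that brings tRNA to the ribosome, fell by 0.95 ± 0.15, and EIF4B, of the cap-binding step, by 0.80 ± 0.14. Ribosomal protein genes summed to 72938 and 69918 per 1e6 counts in cycling and to 53330 and 48371 in treated libraries. Their pseudogenes summed to 569 and 529 against 1442 and 1336 per 1e6. Reads mapping to several places are in neither sum.

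Genes with many processed copies were lower more often than others. Of the 11267 tested genes with no pseudogene of their name, 12.4% were called higher and 12.4% lower. Of the 141 with 10 or more, 4.26% were called higher and 40.4% lower, and without ribosomal proteins 5.95% and 28.6% of 84. Among ribosomal protein genes, 57.9% of the 57 with 10 or more were called lower (median -0.55). Of the 22 with fewer than 10, 40.9% were called lower (median -0.50). The 4 largest rises among genes not coding for protein were all pseudogenes, FTH1P20 with at most 0.271 CPM in the 11 libraries without thapsigargin and 24.3 and 60.9 CPM in the treated ones, FTLP3 with 58.9 and 61.1 CPM, TMSB4XP6 with 29.4 and 30.4 CPM and RPS10P3 with 12.6 and 8.49 CPM. CSNK2A3, an intronless copy of CSNK2A1, had the same pattern, with 0.510 and 0.518 CPM against 11.6 and 11.1 CPM. H3-3A, which shares its protein product with another gene, was at 75.2 and 75.9 CPM against 4.16 and 4.09 CPM. Adding pseudogene counts to their parent genes left 1568 genes called higher and 1699 lower in all, and among ribosomal protein genes 4 higher and 38 lower (median -0.48). The part of read assignment in the lower ribosomal protein counts was not tested.

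Genes of survival and growth were called in both directions, as were all genes tested (11.7% higher and 12.8% lower). Of 28 p53 targets, 9 were called higher and 3 lower (median 0.20). BBC3, PMAIP1, BAX, FAS and TNFRSF10B also stand in the BCL2 family list below, so these counts are not separate. GADD45A, a growth arrest gene, was at 40.3 and 35.8 CPM against 176 and 158 CPM (2.13 ± 0.14), and PMAIP1, the BH3 protein NOXA, at 59.7 and 49.7 CPM against 179 and 108 CPM (1.39 ± 0.27), both also known to answer to ATF4 and CHOP. CDKN1A, the p21 inhibitor, was at 774 and 823 CPM against 1024 and 1007 CPM and was not called. Of 25 genes of the BCL2 family, death receptors and caspases, 5 were called higher and 6 lower, and 2 and 3 without cycling replicate 2. The death receptor gene TNFRSF10B, a CHOP target, was at 166 and 172 CPM against 134 and 143 CPM and was not called, and the decoy receptor gene TNFRSF10D fell from 118 and 112 CPM to 29.7 and 31.2 CPM (-1.92 ± 0.29). CASP8, the caspase that acts below these receptors, fell by 1.17 ± 0.16.

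Of 46 proliferation genes, 3 were called higher and 5 lower (median -0.19), with 2 lower when either cycling replicate was left out. TOP2A, of dividing cells, was at 274.5 and 253 CPM against 246 and 191 CPM, while CDC6, which licenses replication origins, was at 36.9 and 29.3 CPM against 106.5 and 94.6 CPM (1.602 ± 0.24), and the mitotic kinesin KIF20A fell by 1.04 ± 0.20. Of 28 heat shock and mitochondrial chaperone genes, 5 were called higher and 1 lower (median 0.05). HSPB8, a small heat shock protein, rose by 1.51 ± 0.14, whereas HSPA8, the constitutive cytosolic HSP70, was at 2623 and 2351 CPM against 2175 and 1806 CPM and was not called.

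The labelled cell type was checked against its markers. VIM, the mesenchymal filament protein, was at 4830 and 5496 CPM against 6613 and 6147 CPM, and the 14 fibroblast markers together summed to 10470 and 14900 CPM against 9836 and 10840 CPM. Of the 14, 8 were called lower and none higher (4 lower without cycling replicate 2 and 5 without treated replicate 1), COL3A1, DCN and PDGFRA among the lower ones, with the call of DCN, decorin, lost without cycling replicate 2 (adjusted p = 0.0531). Immune markers summed to at most 0.292 CPM in each library, and CDH5, EMCN, KRT5 and CD3E were at 0 in all 4. Of 10 epithelial markers 5 were tested and 2 called higher, KRT19, a keratin of simple epithelia, from 21.8 and 15.3 CPM to 88.9 and 96.1 CPM (2.31 ± 0.38) and CLDN4, a tight junction protein, from 2.697 and 1.30 CPM to 17.5 and 14.1 CPM (2.95 ± 0.41), while EPCAM stayed between 0.437 and 0.754 CPM and CDH1 was at or near 0. The keratin KRT18 was called lower, from 92.3 and 69.8 CPM to 52.8 and 58.9 CPM (-0.54 ± 0.18, adjusted p = 0.0463), a call lost with the 4 libraries alone (adjusted p = 0.14), without cycling replicate 1 (adjusted p = 0.357), without either treated replicate, with DESeq2's size factors, with no filter on low counts and with all gene IDs. Epithelial markers summed to 139.9 and 108.4 CPM against 170.8 and 183.7 CPM, endothelial markers to 18.2 and 24.4 CPM against 5.11 and 5.35 CPM and muscle markers to 570.5 and 514.3 CPM against 339.1 and 435.3 CPM, and their part in the results was not tested. TEK, an angiopoietin receptor, made up most of the cycling endothelial sum (17.4 and 23.7 CPM) and fell by 2.67 ± 0.34. VWF and KDR, endothelial markers at low levels, went the other way and were not called (1.18 ± 0.49 and 2.09 ± 0.86). Of 6 tested muscle markers 4 were called lower and 1 higher, and with the 4 libraries alone 1 and 1. The higher one was SMTN, with a mean of 48.3 CPM in cycling and 108.9 CPM in treated libraries (1.17 ± 0.18).

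The treated libraries differed more from each other than the cycling libraries did. Of 10429 genes with at least 5 CPM in 1 or both of the treated libraries, 383 (3.67%) were at least 2-fold apart between the treated and 31 (0.297%) between the cycling libraries.

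**Figure D5:**
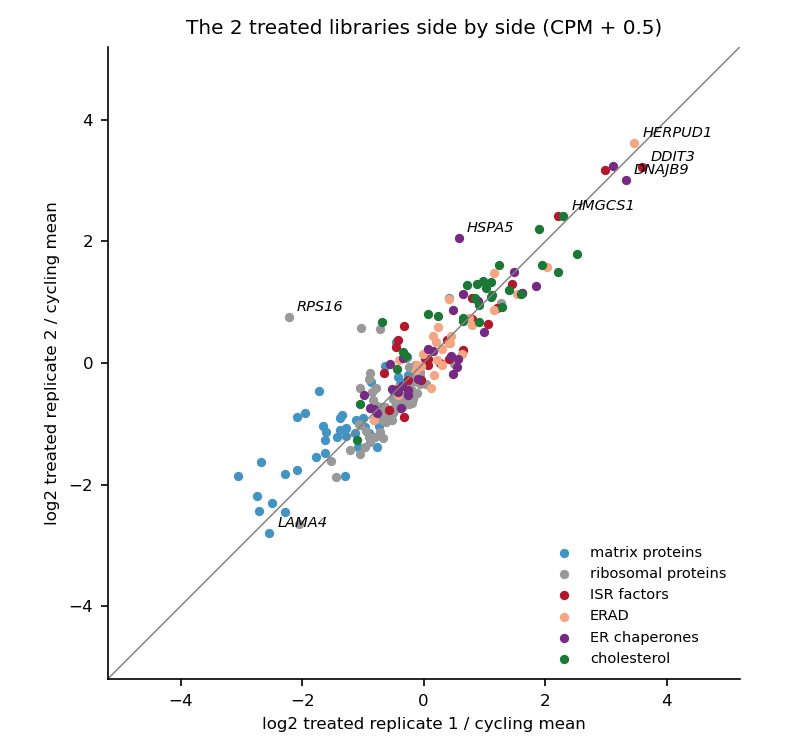
Log2 ratio of each treated library to the mean of the cycling libraries for the tested genes of 6 lists, with replicate 1 on the horizontal and replicate 2 on the vertical axis (0.5 CPM added) and the line of equality. Most points follow the line, while HSPA5 and RPS16 lie far above it and so are higher in replicate 2.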

How the data were processed

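RNA-seq was analysed in 2 thapsigargin-treated and 2 untreated cycling IMR90 libraries, with 9 further RNA-seq libraries in the same fit. The authors deposited whole-number read counts for each gene, not normalized, in the layout of STAR, and the submitters' processing notes name STAR 2.7.10b, DESeq2 1.36.0, bcl2fastq and hg38. The annotation release and trimming are not given in the sources used here. Libraries came from a stranded TruSeq kit, per the labels, and the deposited reverse-strand counts were used. The forward strand held 5.41% to 10.7% of the counts of the 4 libraries. Lines naming no gene (unmapped, multimapping, outside genes, ambiguous) stayed out of library sizes and tests. Ambiguous reads were 11.4% and 10.7% of the unique reads of the cycling and 7.11% and 6.65% of the treated libraries. Genes that overlap others can lose reads in this way, and whether ASNS did could not be examined. Of 62703 gene IDs, 62625 had a symbol, 40797 matched the RefSeq table (GRCh38.p14) and 19322 were protein coding. A label that calls the treated libraries protected fragments was set aside for their titles.

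After filterByExpr, R 4.3.3 with edgeR 4.0.16 compared the groups (quasi-likelihood F test, robust, TMM, 13 libraries in 5 groups, two-sided, Benjamini-Hochberg over all genes tested), after the fit was tested on simulated data. The alternatives were the 4 libraries alone, a replicate block, DESeq2 1.42.0, its size factors, no filter, unstranded counts, all gene IDs and leaving out each of the 4 libraries compared. Leaving out quiescent replicate 3 and adding pseudogene counts to parent genes were chosen after seeing the data. Gene lists were described by counts and medians, with no test. Gene lists and comparison were chosen with earlier results of these data known. Named genes were the 12 largest rises and falls called in both edgeR fits with a mean of at least 5 CPM and groups that did not overlap, key genes and called members of the lists, and the 4 largest rises and falls outside protein-coding genes. Outside this rule, and chosen after their values were seen, were FICD, RAD9A and SERP1 (for their promoters), CANX, COL1A2, CSNK2A1, DKK1, EPCAM, HSPG2, INHBA, MSMO1, NFIL3, NFKBIE, P4HA2, PHGDH, PLOD1, PMVK, RPL26, RPLP0, RPS16, SERPINH1, SFRP1, SHMT2, SMAD6, SREBF1, SREBF2, TGFB2, TGFBR3, TOP2A and VIM, so the named members are not a fair sample of their lists. Promoter sequences came from the RefSeq table for GRCh38.p14. Some members of the cholesterol list are not reported here.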

Additional observations from a re-analysis of the deposited data

How the results depend on the processing

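The fit of the 4 libraries alone called 1510 genes, 855 higher and 655 lower, so that 56.6% of calls were higher in place of 47.9%. Leaving out 1 of the 4 libraries or quiescent replicate 3 gave 1603 to 3826 genes called, 792 to 1826 higher and 798 to 2000 lower, the lowest totals without a cycling replicate (1724 and 1603). The replicate numbers have no stated pairing. Deviations of same-numbered libraries from their group means had a correlation of 0.173. With 2 libraries a group the deviations mirror each other, so both pairs give the same value and it cannot decide on pairing. The fit with a replicate block called 3287 genes, 1547 higher and 1740 lower. DESeq2, its size factors, no filter, unstranded counts, all gene IDs and pseudogenes added to parent genes gave 3007 to 4174 genes called. Named genes that were not called and changed sign when a library was left out were CALR (-0.32 to 0.10), COL1A1 (-1.08 to 0.53), SREBF1 (-0.33 to 0.19), RPS16 (-2.21 to 1.19), HSPA13 (-0.17 to 0.51), PMVK (-0.69 to 0.70) and BLOC1S1 (-0.002 to 0.409). The causes were not tested. With 2 libraries a group, changes under 2-fold are the least certain, and gene counts hold nothing on isoforms or splicing.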

Other observations

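Of 27 interferon-stimulated genes 1 was called higher and 6 lower (median -0.40), but 1 lower with the 4 libraries alone and without cycling replicate 2, and 2 lower without cycling replicate 1 or treated replicate 2. Among them stood IFIT1, an RNA-binding antiviral protein, at 12.7 and 20.2 CPM in cycling and 4.82 and 2.61 CPM in treated libraries (-2.15 ± 0.38). For the list counts of this paragraph, the shares over all genes tested were 11.7% higher and 12.8% lower. Of 67 oxidative phosphorylation genes 1 was called higher and 3 lower (median -0.16), and none was called with the 4 libraries alone, while 9 were called lower without treated replicate 1. Of 25 autophagy genes 5 were called higher and 4 lower (2 and none with the 4 libraries alone, 3 and 1 without cycling replicate 2), with GABARAP, which builds autophagosomes, at 2.92 and 2.59 CPM against 7.40 and 8.93 CPM (1.56 ± 0.27, a call lost with unstranded counts, adjusted p = 0.132) and SQSTM1, a cargo receptor, at 916 and 910 CPM against 1177 and 1255 CPM and not called. Of 27 contractile genes 4 were called higher and 5 lower (10 and 2 without treated replicate 1, 3 and 1 without cycling replicate 1), with ACTA2, smooth muscle actin, at 753 and 634.5 CPM against 346 and 319 CPM (-1.06 ± 0.28, a call lost without cycling replicate 1 and without treated replicate 2, adjusted p up to 0.0951) and ANKRD1, a stretch-responsive cofactor, at 3.72 and 1.61 CPM against 19.5 and 13.6 CPM (2.60 ± 0.49).

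Among genes that do not code for protein, the 4 largest falls were in small nuclear and nucleolar RNAs. SNORD114-20 was at 13.6 and 11.2 CPM in cycling and 0.228 and 0.232 CPM in treated libraries, SNORA74A at 8.91 and 12.02 CPM against 0.637 and 0.529 CPM, SCARNA21 at 34.4 and 31.1 CPM against 2.66 and 2.66 CPM, and SNORD3A at 281 and 585 CPM against 53.02 and 32.2 CPM. For SNORA74A, SCARNA21 and SNORD3A the lowest of the 9 quiescent and senescent libraries was at 0.503, 2.53 and 8.45 CPM, below the treated libraries. These are short RNAs, and the part of library preparation in these values was not tested.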
